A study of Mus musculus with 12 samples.

Results

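The genes described here are 44 named genes of the G2 phase and mitosis, chosen by name from what their proteins do. Of the 44, 43 were measured on the arrays, out of 18193 genes in all, each by the 1 probe set that names only that gene and has the highest mean signal over all arrays. Ccnb1 (cyclin B1) was not analysed here. Bone marrow-derived macrophages (BMDMs) received LPS (100 ng/mL) together with IFNγ (50 ng/mL) and were harvested after 8 h, a stimulation that drives classical (M1) activation, or were left untreated. They came from Nos2-/- mice (B6.129P2-Nos2tm1Lau/J), which carry a targeted mutation of the inducible NO synthase, and from WT mice (C57BL/6), all of them 6 to 10 weeks old according to the methods. All cultures were grown from bone marrow with 20 ng/mL of M-CSF. There were 3 arrays each of stimulated Nos2-/-, stimulated WT, untreated Nos2-/- and untreated WT BMDMs, 12 in all. The methods give the untreated cultures vehicle (PBS) for the same time, while the labels describe them as taken before stimulation. The labels call the arrays of a group biological replicates and do not say whether these were separate animals, so the p-values measure the spread between these arrays.

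A dividing cell doubles its DNA in S phase, passes G2 and then separates the copies in mitosis. Cdk1 bound to an A- or B-type cyclin starts mitosis, Aurora and Polo-like kinases build the spindle, kinetochores tie the chromosomes to it, and the spindle checkpoint holds the cell until every chromosome is attached. The genes for these proteins are transcribed together late in the cycle and are repressed in resting cells. Their promoters often carry a cell cycle homology region (CHR), bound by the MuvB complex as part of the repressor DREAM or together with the activators B-Myb and FoxM1, and CCAAT boxes bound by NF-Y. Bone marrow macrophages divide in culture as long as M-CSF is present, and activation by LPS or IFNγ is known to stop them.

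The promoter windows of the members were searched for these elements, since 35 of the 43 members fell in both genotypes. RefSeq windows from 250 bases before to 50 bases after a RefSeq start were at hand for 36 of the 43 members (build GRCm38.p6). They were at hand for 14368 genes of the arrays in all. A RefSeq start need not be the outer end of the annotated gene. Of the members, 3 had 2 windows, and a gene counted as matched if either window held the motif. Both strands were searched for the CHR form TTTGAA, which reads TTCAAA on the other strand, for the CHR form TTTAAA, which reads the same on both, and for CCAAT, which reads ATTGG on the other strand. A CHR match and a CCAAT match may share letters at their ends, and each was counted. TTTGAA was found in the windows of 28 of the 36 members (77.8%) and of 15.7% of the 14368 genes, and TTTAAA in 8 (22.2%) and 12.1%. CCAAT was found for 29 members (80.6%) against 42.0% of the genes, and TTTGAA and CCAAT in the same gene for 25 members (69.4%) against 7.36%. A match is a run of letters and was not tested as a binding site. The 6 sequences below are those with both matches before the start and the largest falls on stimulation in WT BMDMs. Capitals mark TTTGAA and CCAAT matches of either strand. The sequences give the last 200 bases before the RefSeq start, 5′ to 3′ on the strand of the gene. They lie at chr19:37376182-37376381 (Kif11, plus strand), chr11:99024190-99024389 (Top2a, minus strand), chr6:125191587-125191786 (Ncapd2, minus strand), chr3:27153855-27154054 (Ect2, minus strand), chr10:69352913-69353112 (Cdk1, minus strand) and chr4:52439021-52439220 (Smc2, plus strand).
Kif11: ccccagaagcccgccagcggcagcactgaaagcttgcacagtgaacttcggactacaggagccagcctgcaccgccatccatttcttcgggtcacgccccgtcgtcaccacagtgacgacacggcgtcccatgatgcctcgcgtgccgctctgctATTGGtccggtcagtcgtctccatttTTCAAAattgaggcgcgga
Top2a: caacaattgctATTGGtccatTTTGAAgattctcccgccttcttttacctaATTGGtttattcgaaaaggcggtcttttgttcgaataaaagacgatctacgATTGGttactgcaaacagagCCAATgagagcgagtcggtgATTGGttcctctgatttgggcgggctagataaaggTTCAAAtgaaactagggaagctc
Ncapd2: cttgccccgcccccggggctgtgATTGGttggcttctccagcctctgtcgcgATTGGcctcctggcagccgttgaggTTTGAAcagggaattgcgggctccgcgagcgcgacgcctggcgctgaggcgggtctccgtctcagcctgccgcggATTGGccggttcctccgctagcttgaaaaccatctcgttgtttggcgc
Ect2: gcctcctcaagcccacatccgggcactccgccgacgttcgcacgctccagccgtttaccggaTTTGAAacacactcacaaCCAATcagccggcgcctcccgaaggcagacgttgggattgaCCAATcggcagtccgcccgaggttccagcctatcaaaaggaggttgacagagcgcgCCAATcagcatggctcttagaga
Cdk1: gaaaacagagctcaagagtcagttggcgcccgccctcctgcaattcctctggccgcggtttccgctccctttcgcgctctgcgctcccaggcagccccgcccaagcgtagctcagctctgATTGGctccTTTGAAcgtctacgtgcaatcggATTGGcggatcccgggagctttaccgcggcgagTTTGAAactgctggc
Smc2: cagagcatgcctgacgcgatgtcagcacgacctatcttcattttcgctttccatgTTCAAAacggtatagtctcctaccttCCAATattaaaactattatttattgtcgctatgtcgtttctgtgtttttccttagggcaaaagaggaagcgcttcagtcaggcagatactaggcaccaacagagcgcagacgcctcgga

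The Kif11 and Smc2 stretches hold 1 CHR and 1 CCAAT match each, whereas that of Top2a holds 2 CHR and 5 CCAAT matches and that of Cdk1 2 of each. Those of Ncapd2 and Ect2 hold 1 CHR and 3 CCAAT matches each. Both of these lie inside the annotated gene, whose span reaches 125192100 for Ncapd2 and 27154253 for Ect2. That of Top2a overlaps its gene, which reaches 99024199. The 28 members with a TTTGAA match had a median log2 fold change on stimulation of -1.47 in Nos2-/- BMDMs and -1.17 in WT BMDMs, and the 8 without had medians of -1.33 in Nos2-/- and -1.01 in WT BMDMs. TTTAAA ordered the medians the other way, and CCAAT ordered them like TTTGAA in WT BMDMs only. None of these splits was tested. The 8 members with TTTAAA had -0.97 in Nos2-/- and -0.81 in WT BMDMs, and the 28 without had -1.57 in Nos2-/- and -1.27 in WT BMDMs. The 29 members with CCAAT had -1.45 in Nos2-/- and -1.16 in WT BMDMs, and the 7 without had -1.47 in Nos2-/- and -1.01 in WT BMDMs. Kif2c, Kif4 and Mki67 hold a TTTGAA match and were not called in either genotype, and Nuf2, which holds none of the motifs in its window, had one of the largest falls.

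**Figure D1:**
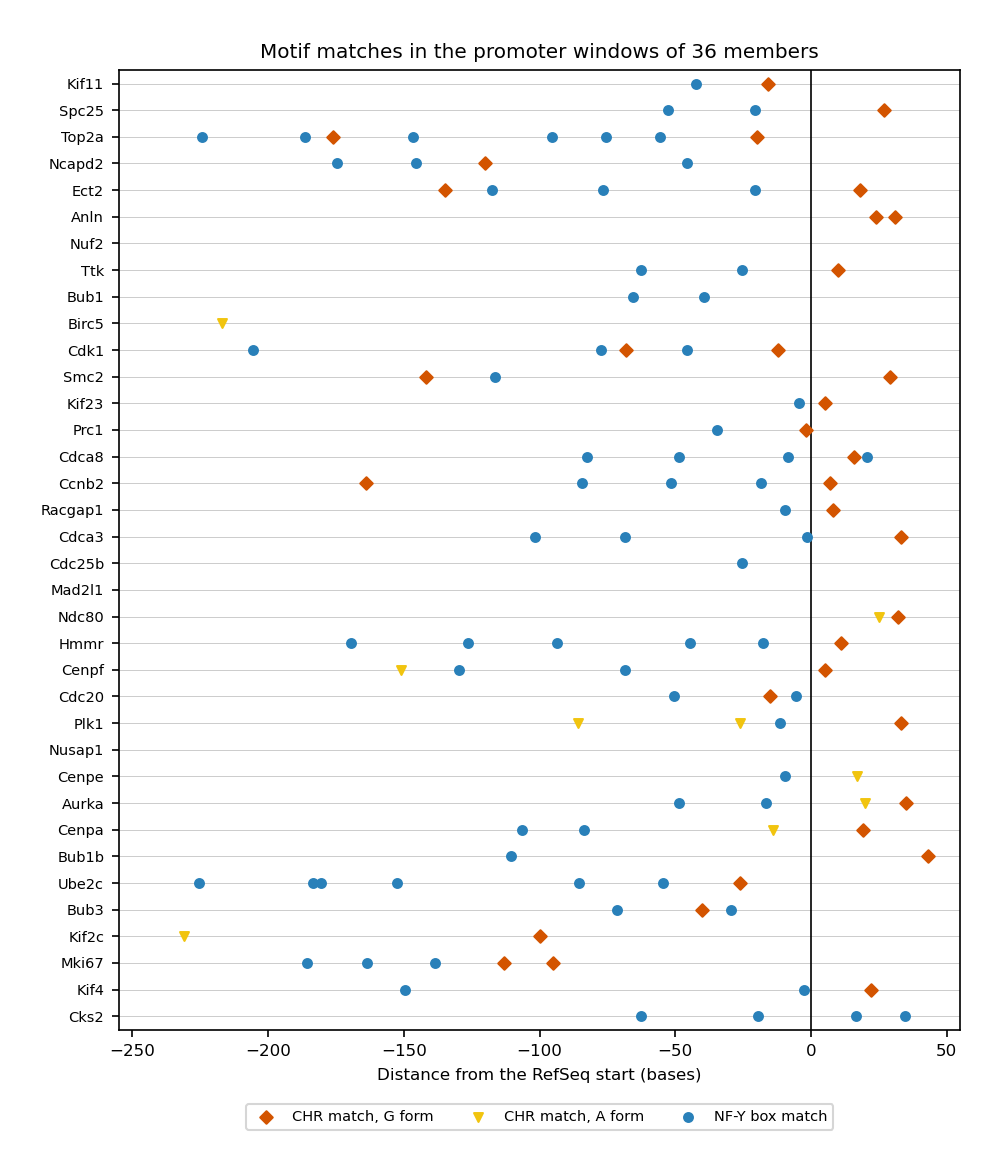
Matches to the CHR (G form TTTGAA, A form TTTAAA) and to the NF-Y box (CCAAT) in the RefSeq promoter windows of 36 members. Each row is 1 gene, in the order of the change in WT BMDMs with the largest fall at the top. The x axis is the distance in bases from the RefSeq start of the window, which is the vertical line. Where a gene has 2 windows, 1 is drawn. Most members have a CHR match of the G form (28 of 36) and an NF-Y box match (29 of 36), from the top of the order to its foot.

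The deposited log2 RMA signals had medians per array between 5.14 and 5.21, arrays of a group correlated at 0.996 or above over all probe sets, and the number of arrays limits the precision. The macrophage markers Csf1r, Adgre1 and Lyz2 averaged 14.07, 12.87 and 14.56 in untreated Nos2-/- BMDMs and 14.09, 12.89 and 14.55 in untreated WT BMDMs. The progenitor markers Kit and Myb were between 3.34 and 4.02 on all 12 arrays, below the array medians, and do not stand for their whole list. The mean signal of the 11 macrophage markers was 11.22 to 11.30 on the stimulated and 11.45 to 11.59 on the untreated arrays, and on stimulation 7 of 11 fell and 3 rose in each genotype. Between untreated genotypes none of the 11 was called, and 3 were lower in Nos2-/- at an unadjusted p under 0.05. Of 10 markers of myeloid and stem cell progenitors, 2 fell on stimulation in each genotype (Cd34 and Sox4), 2 rose in Nos2-/- and 4 rose in WT BMDMs. The largest fall of this list was -1.88 in Nos2-/- and -2.225 in WT BMDMs, and the largest rise 0.31 in Nos2-/- and 0.34 in WT BMDMs. The mean signal of the 10 was 4.88 to 4.99 on the stimulated and 4.98 to 5.08 on the untreated arrays. Markers of other cells also moved with stimulation. In Nos2-/- BMDMs 4 of 10 neutrophil, 3 of 9 mast cell and basophil, 3 of 9 dendritic cell and 4 of 10 fibroblast and stroma markers rose, and in WT BMDMs 5, 5, 6 and 6 of these rose. Over all genes 26.3% rose and 28.2% fell in Nos2-/- BMDMs, and 29.6% rose and 28.4% fell in WT BMDMs. Among these 4 lists 1 marker fell in each genotype, of the dendritic cell list. Of 9 B cell markers 3 fell in each genotype and 2 rose, in WT only. Of 7 megakaryocyte markers 3 fell and 2 rose in each genotype. Of 7 erythroid and 7 T and NK cell markers, 2 and 2 rose in Nos2-/- and 1 and 2 in WT, and none fell. Between stimulated genotypes 2 megakaryocyte markers were lower and 1 dendritic cell marker higher in Nos2-/-, beside 1.91% lower and 1.03% higher of all genes. The mean signal of the neutrophil markers was 7.12 to 7.30 on the stimulated and 6.38 to 6.81 on the untreated arrays, and that of the mast cell and basophil markers 4.94 to 5.13 on the stimulated and 4.24 to 4.40 on the untreated arrays. The median change of the neutrophil list was 0.36 in Nos2-/- and 0.26 in WT, beside a largest rise of 3.57 in Nos2-/- and 3.39 in WT. For the mast cell and basophil list the median was 0.22 in Nos2-/- and 0.32 in WT, and the largest rise 4.86 in Nos2-/- and 4.67 in WT. The part of these markers in the results below was not tested. The only Nos2 probe set gave 7.74, 7.45 and 7.88 in stimulated Nos2-/- BMDMs, 9.73, 9.81 and 9.64 in stimulated WT BMDMs, 5.15, 5.41 and 5.36 in untreated Nos2-/- BMDMs and 5.45, 5.40 and 5.65 in untreated WT BMDMs. It was lower in Nos2-/- than in WT BMDMs after stimulation on every array but rose with stimulation in both. Where its probes lie relative to the mutation is not given in the sources used here, so this signal does not check the genotype.

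1 array stood furthest apart in these genes. Untreated Nos2-/- replicate 3 had the lowest signal of its 3 arrays for 43 of 43 members, against 32.5% of all genes. The mean signal over the members was 7.84, 7.65 and 6.93 on the untreated Nos2-/- arrays and 7.70, 7.46 and 7.27 on the untreated WT arrays. Untreated WT replicate 1 was the highest of its group for 41 of 43 members, against 29.2% of all genes. Untreated WT replicate 3 was the lowest of its group for 34 of 43 members, against 32.4% of all genes. The SD between arrays had a median over the members of 0.51 in untreated Nos2-/- BMDMs and 0.24 in untreated WT BMDMs, where over all genes it was 0.08 in Nos2-/- and 0.07 in WT. In stimulated BMDMs the median SD over the members was smaller, 0.18 in Nos2-/- and 0.16 in WT, beside 0.11 in Nos2-/- and 0.10 in WT over all genes. Of the 100 genes with the largest SD in untreated Nos2-/- BMDMs, 31 were members and 25 were other mitotic genes, and the largest SD of all 18193 genes was that of Birc5 (0.84). In untreated WT BMDMs the 100 genes held 11 members. DNA replication genes shared the low array, with replicate 3 the lowest of untreated Nos2-/- for 28 of 29. Why this array was low was not tested. Without it, the log2 fold change on stimulation in Nos2-/- BMDMs was lower for all 43 members, by 0.04 to 0.48. That direction was fixed in advance, since the array was the lowest of its group for every member. The array was singled out from the members' own values, so calls without it show its weight and are no further evidence. The values whose call or direction turned without it are given below.

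On stimulation the mitosis genes fell in both genotypes, from cyclins and Cdk1 to kinetochore and cytokinesis proteins. A gene was called where limma gave it an adjusted p (Benjamini-Hochberg, over all genes) under 0.05, and values are log2 fold changes, stimulated minus untreated, ± SE. In stimulated Nos2-/- BMDMs, 36 of 43 members were lower than in untreated Nos2-/- BMDMs, 1 was higher and 6 were not called, beside 28.2% of all genes called lower and 26.3% called higher. In stimulated WT BMDMs, 35 of 43 were lower than in untreated WT BMDMs, 1 was higher and 7 were not called, beside 28.4% of all genes lower and 29.6% higher. The median change was -1.45 in Nos2-/- BMDMs (2.74-fold lower) and -1.02 in WT BMDMs (2.03-fold lower), while the median over all genes was 0.05 in Nos2-/- and 0.07 in WT. The 36 members that fell or rose in WT were also called, in the same direction, in Nos2-/-, and Ube2c was called only in Nos2-/-. A fall of 1 or more on the log2 scale was seen for 31 members in Nos2-/- BMDMs (9.65% of all genes) and 23 in WT BMDMs (9.14%). All stimulated arrays lay below all untreated arrays for 36 members in each genotype, against 29.9% of all genes in Nos2-/- and 30.4% in WT. Without untreated Nos2-/- replicate 3, 40 members were lower in Nos2-/- and the median was -1.72, with Cks2, Cdc25c, Kif4 and Mki67 the members added. These are RNA values of whole cultures, in which fewer cells in division and less of these RNAs per cell cannot be told apart. The stimulated signals of some members, such as Kif11, Ttk and Kif20a, lay below the array medians. How far such low signals limit the size of a fall was not tested.

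**Figure D2:**
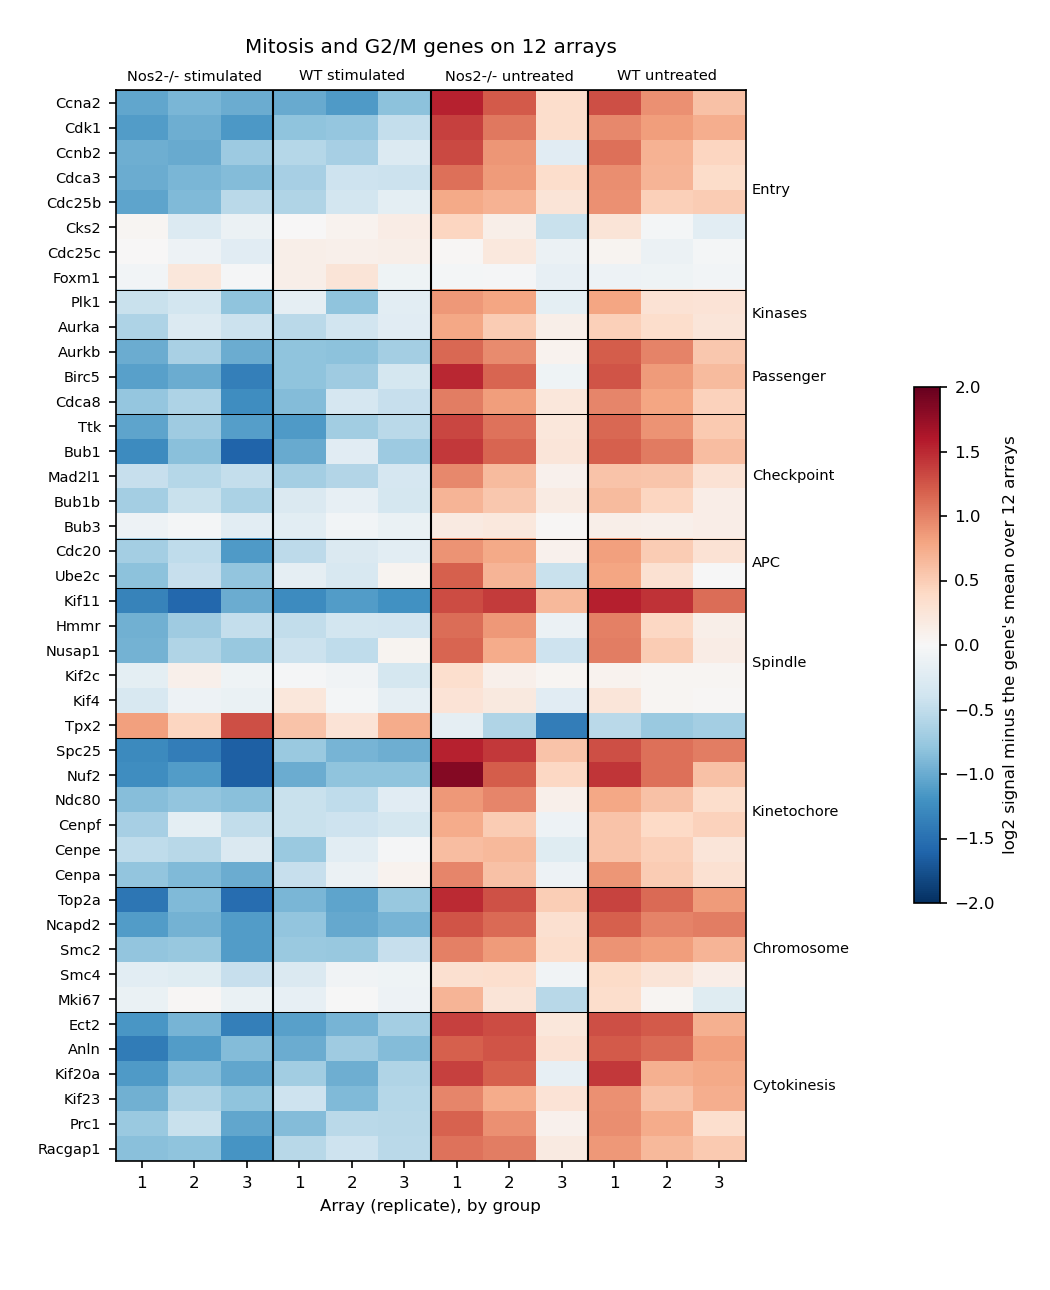
Signal of each of the 43 members on each of the 12 arrays, as log2 signal minus the mean of that gene over the 12 arrays (colour scale), with genes grouped by role and arrays grouped as stimulated Nos2-/-, stimulated WT, untreated Nos2-/- and untreated WT. Most rows are blue on the 6 stimulated arrays and red on the untreated ones, with untreated Nos2-/- replicate 3 the palest of its group and Tpx2 running the other way.

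Among the genes for entry into mitosis, 5 of 8 fell in each genotype. Ccna2, which encodes cyclin A2, had log2 signals of 6.67, 6.80 and 6.73 in stimulated Nos2-/- BMDMs, 6.71, 6.59 and 6.90 in stimulated WT, 9.25, 8.94 and 8.07 in untreated Nos2-/- and 9.01, 8.64 and 8.30 in untreated WT BMDMs. Every stimulated array was below every untreated one, and the change was -2.02 ± 0.24 in Nos2-/- (adjusted p = 4.0e-06) and -1.92 ± 0.24 in WT (adjusted p = 7.4e-06). Cdk1, the kinase that cyclins A and B activate, fell by 2.01 ± 0.19 in Nos2-/- and 1.53 ± 0.19 in WT BMDMs. Ccnb2 (cyclin B2) changed by -1.57 ± 0.29 in Nos2-/- and -1.25 ± 0.29 in WT. The other falls were Cdca3, an adaptor for the degradation of the Cdk1 inhibitor Wee1 (-1.69 ± 0.17 in Nos2-/-, -1.16 ± 0.17 in WT), and Cdc25b, a phosphatase that activates Cdk1 (-1.39 ± 0.16 in Nos2-/- and -1.02 ± 0.16 in WT). Cks2, a small Cdk1-binding protein, had 8.97, 8.66 and 8.82 in stimulated Nos2-/-, 8.95, 9.01 and 9.08 in stimulated WT, 9.37, 9.06 and 8.50 in untreated Nos2-/- and 9.20, 8.90 and 8.73 in untreated WT BMDMs. Its groups overlapped in both genotypes and it was not called (adjusted p = 0.4823 in Nos2-/- and 0.7387 in WT). It was called lower in Nos2-/- without untreated Nos2-/- replicate 3 (-0.39, adjusted p = 0.0284). Cdc25c, a second activating phosphatase, and Foxm1, the transcription factor of these genes, were not called either, with -0.15 ± 0.09 and 0.12 ± 0.09 in Nos2-/- and 0.14 ± 0.09 and 0.18 ± 0.09 in WT BMDMs. Without the same array Cdc25c had -0.23 in Nos2-/- and was called (adjusted p = 0.0480). The signals of Foxm1 lay between 6.20 and 6.62 on all 12 arrays.

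Both mitotic kinases fell. Plk1, which acts on centrosomes, kinetochores and the cleavage furrow, had 5.92, 6.00 and 5.57 in stimulated Nos2-/-, 6.19, 5.56 and 6.15 in stimulated WT, 7.25, 7.16 and 6.18 in untreated Nos2-/- and 7.16, 6.67 and 6.65 in untreated WT BMDMs. Its change was -1.03 ± 0.25 in Nos2-/- (adjusted p = 0.0032) and -0.86 ± 0.25 in WT (adjusted p = 0.0102), with the stimulated arrays below the untreated ones in each genotype. Aurka, the Aurora kinase of centrosomes and spindle poles, had 6.12, 6.45 and 6.29 in stimulated Nos2-/-, 6.20, 6.35 and 6.50 in stimulated WT, 7.51, 7.23 and 6.84 in untreated Nos2-/- and 7.20, 7.09 and 6.98 in untreated WT BMDMs. It fell by 0.91 ± 0.14 in Nos2-/- and 0.74 ± 0.14 in WT, again without overlap of the groups.

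The 3 measured members of the chromosomal passenger complex, which corrects wrong attachments and later directs cytokinesis, all fell. Aurkb, its kinase, had 5.43, 5.78 and 5.44 in stimulated Nos2-/-, 5.63, 5.61 and 5.74 in stimulated WT, 7.58, 7.38 and 6.50 in untreated Nos2-/- and 7.64, 7.42 and 6.97 in untreated WT BMDMs. Its change was -1.60 ± 0.23 in Nos2-/- (adjusted p = 2.9e-05) and -1.68 ± 0.23 in WT (adjusted p = 1.9e-05). Birc5 (survivin), the subunit that binds centromeric chromatin, had 5.84, 5.94 and 5.56 in stimulated Nos2-/-, 6.12, 6.21 and 6.58 in stimulated WT, 8.45, 8.10 and 6.85 in untreated Nos2-/- and 8.19, 7.78 and 7.56 in untreated WT BMDMs. It changed by -2.02 ± 0.31 in Nos2-/- and -1.54 ± 0.31 in WT. Cdca8 (borealin) had 7.00, 7.16 and 6.53 in stimulated Nos2-/-, 6.90, 7.44 and 7.31 in stimulated WT, 8.79, 8.61 and 8.00 in untreated Nos2-/- and 8.75, 8.56 and 8.23 in untreated WT BMDMs, and it changed by -1.57 ± 0.21 in Nos2-/- and -1.29 ± 0.21 in WT. Groups did not overlap for any of the 3. Incenp, the scaffold of this complex, is not among the members and rose in both genotypes, as given below.

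All 5 spindle checkpoint genes fell in both genotypes, by very different amounts. Ttk (Mps1), the kinase that starts checkpoint signaling, had 3.82, 4.17 and 3.77 in stimulated Nos2-/-, 3.74, 4.18 and 4.34 in stimulated WT, 6.20, 5.96 and 5.11 in untreated Nos2-/- and 6.02, 5.76 and 5.39 in untreated WT BMDMs, and changed by -1.84 ± 0.25 in Nos2-/- and -1.64 ± 0.25 in WT. Bub1, a checkpoint kinase at kinetochores, had 5.25, 5.67 and 4.90 in stimulated Nos2-/-, 5.50, 6.28 and 5.78 in stimulated WT, 7.93, 7.67 and 6.74 in untreated Nos2-/- and 7.70, 7.54 and 7.11 in untreated WT BMDMs. It changed by -2.17 ± 0.29 in Nos2-/- and -1.60 ± 0.29 in WT. Bub3, which carries Bub1 and BubR1 to kinetochores, had 10.99, 11.04 and 10.87 in stimulated Nos2-/-, 10.88, 11.02 and 10.94 in stimulated WT, 11.27, 11.29 and 11.11 in untreated Nos2-/- and 11.20, 11.19 and 11.21 in untreated WT BMDMs. Its groups did not overlap, yet the fall was small, -0.26 ± 0.07 in Nos2-/- (adjusted p = 0.0064) and -0.25 ± 0.07 in WT (adjusted p = 0.0077). Mad2l1 (Mad2) and Bub1b (BubR1), 2 parts of the inhibitor of Cdc20, changed by -1.06 ± 0.17 and -1.05 ± 0.13 in Nos2-/- and by -1.01 ± 0.17 and -0.67 ± 0.13 in WT BMDMs.

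The 2 partners of the anaphase-promoting complex, the ubiquitin ligase that ends mitosis, were the only role in which the calls of the genotypes differed. Cdc20, its activator, had 6.97, 7.14 and 6.51 in stimulated Nos2-/-, 7.13, 7.36 and 7.43 in stimulated WT, 8.54, 8.41 and 7.73 in untreated Nos2-/- and 8.46, 8.15 and 7.93 in untreated WT BMDMs, and fell by 1.35 ± 0.20 in Nos2-/- and 0.88 ± 0.20 in WT. Ube2c, its ubiquitin-conjugating enzyme, had 7.07, 7.43 and 7.10 in stimulated Nos2-/-, 7.71, 7.56 and 7.94 in stimulated WT, 9.09, 8.57 and 7.45 in untreated Nos2-/- and 8.69, 8.20 and 7.89 in untreated WT BMDMs. Stimulated and untreated WT arrays overlapped. The change was -1.17 ± 0.31 in Nos2-/- (adjusted p = 0.0056) and -0.52 ± 0.31 in WT (adjusted p = 0.1704), and the difference between these 2 changes was -0.65 ± 0.44 (95% CI -1.60 to 0.30, adjusted p = 0.6698), which was not called. Without untreated Nos2-/- replicate 3, which enters the shared estimate of the spread, Ube2c was called in WT as well (adjusted p = 0.0336).

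Kinesins and spindle proteins were the most mixed, with 3 of 6 lower and 1 higher in each genotype. Kif11 (Eg5), the motor that pushes the spindle poles apart, had 4.12, 3.88 and 4.47 in stimulated Nos2-/-, 4.20, 4.34 and 4.24 in stimulated WT, 6.75, 6.85 and 6.11 in untreated Nos2-/- and 7.01, 6.90 and 6.56 in untreated WT BMDMs. Its change was -2.41 ± 0.18 in Nos2-/- (adjusted p = 4.6e-08) and -2.57 ± 0.18 in WT (adjusted p = 2.6e-08), the largest of the 43 in WT. Nusap1 and Hmmr, which bind spindle microtubules, changed by -1.27 ± 0.32 and -1.34 ± 0.27 in Nos2-/- and by -0.86 ± 0.32 and -0.92 ± 0.27 in WT BMDMs. Kif4, a chromosome-bound kinesin, had 5.01, 5.23 and 5.20 in stimulated Nos2-/-, 5.55, 5.29 and 5.15 in stimulated WT, 5.61, 5.53 and 5.11 in untreated Nos2-/- and 5.57, 5.38 and 5.36 in untreated WT BMDMs. Its groups overlapped and it was not called (-0.27 ± 0.13 in Nos2-/- and -0.10 ± 0.13 in WT). In Nos2-/- it was called lower without untreated Nos2-/- replicate 3 (-0.42, adjusted p = 0.0079). Kif2c, a kinesin that shortens microtubules at centromeres, was not called either (-0.22 ± 0.10 in Nos2-/- and -0.19 ± 0.10 in WT). Tpx2, the activator of Aurora A on the spindle, ran the other way, with 8.55, 8.16 and 9.02 in stimulated Nos2-/-, 8.30, 8.00 and 8.46 in stimulated WT, 7.55, 7.13 and 6.34 in untreated Nos2-/- and 7.18, 6.99 and 7.04 in untreated WT BMDMs. All stimulated arrays were above all untreated ones, and the rise was 1.57 ± 0.26 in Nos2-/- (adjusted p = 1.1e-04) and 1.18 ± 0.26 in WT (adjusted p = 0.0013). This rise rests on 1 probe set, since the other 3 of Tpx2 gave -0.06, 0.11 and 0.06 in Nos2-/- and 0.16, 0.01 and 0.11 in WT BMDMs, none of them called.

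All 6 centromere and kinetochore genes fell. Spc25, a subunit of the Ndc80 complex that grips microtubules, had 5.37, 5.27 and 5.01 in stimulated Nos2-/-, 5.90, 5.72 and 5.66 in stimulated WT, 8.18, 8.07 and 7.22 in untreated Nos2-/- and 7.94, 7.75 and 7.67 in untreated WT BMDMs. It had the largest fall of the 43 in Nos2-/-, -2.60 ± 0.19 (adjusted p = 3.4e-08), and the second largest in WT, -2.03 ± 0.19 (adjusted p = 5.2e-07). Nuf2, another subunit, had 4.75, 4.87 and 4.36 in stimulated Nos2-/-, 5.00, 5.19 and 5.18 in stimulated WT, 7.82, 7.19 and 6.41 in untreated Nos2-/- and 7.42, 7.08 and 6.57 in untreated WT BMDMs, and changed by -2.48 ± 0.28 in Nos2-/- and -1.90 ± 0.28 in WT. Ndc80 itself changed by -1.47 ± 0.18 in Nos2-/- and -0.97 ± 0.18 in WT. Cenpa, the histone H3 variant that marks the centromere, had 6.83, 6.73 and 6.63 in stimulated Nos2-/-, 7.16, 7.50 and 7.69 in stimulated WT, 8.59, 8.20 and 7.52 in untreated Nos2-/- and 8.51, 8.12 and 7.92 in untreated WT BMDMs. Its stimulated Nos2-/- arrays lay below its stimulated WT arrays, and the change was -1.37 ± 0.22 in Nos2-/- (adjusted p = 1.0e-04) and -0.73 ± 0.22 in WT (adjusted p = 0.0118). Cenpe, a kinetochore kinesin, and Cenpf, an outer kinetochore protein, fell by 0.79 ± 0.22 and 0.84 ± 0.17 in Nos2-/- and 0.75 ± 0.22 and 0.89 ± 0.17 in WT BMDMs.

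Of the 5 genes for chromosome structure, 4 fell. Top2a, the topoisomerase that untangles sister chromatids, had 6.52, 7.09 and 6.45 in stimulated Nos2-/-, 7.05, 6.92 and 7.22 in stimulated WT, 9.47, 9.25 and 8.47 in untreated Nos2-/- and 9.32, 9.11 and 8.82 in untreated WT BMDMs. It fell by 2.38 ± 0.23 in Nos2-/- (adjusted p = 5.2e-07) and 2.02 ± 0.23 in WT (adjusted p = 3.0e-06). The condensin subunits did not move by one amount. Ncapd2, specific to condensin I, had 4.68, 4.86 and 4.68 in stimulated Nos2-/-, 5.01, 4.78 and 4.86 in stimulated WT, 7.06, 6.93 and 6.13 in untreated Nos2-/- and 7.00, 6.80 and 6.82 in untreated WT BMDMs, and changed by -1.97 ± 0.18 in Nos2-/- and -1.99 ± 0.18 in WT. Smc2 and Smc4, the core pair of both condensins, changed by -1.63 ± 0.15 and -0.49 ± 0.11 in Nos2-/- and by -1.46 ± 0.15 and -0.40 ± 0.11 in WT BMDMs. Mki67, whose protein Ki-67 coats mitotic chromosomes and is the usual stain for dividing cells, had 8.15, 8.31 and 8.16 in stimulated Nos2-/-, 8.14, 8.28 and 8.18 in stimulated WT, 8.97, 8.55 and 7.73 in untreated Nos2-/- and 8.64, 8.34 and 8.05 in untreated WT BMDMs. Stimulated and untreated arrays overlapped in both genotypes, and its change was not called (-0.21 ± 0.23 in Nos2-/-, adjusted p = 0.4684, and -0.14 ± 0.23 in WT, adjusted p = 0.6200). Without untreated Nos2-/- replicate 3 its change in Nos2-/- was -0.55 and was called (adjusted p = 0.0085). Mki67 has 1 probe set here.

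All 6 genes of the central spindle and cytokinesis fell by more than 1 on the log2 scale in both genotypes. Ect2, which activates RhoA at the cleavage furrow, had 4.82, 5.05 and 4.61 in stimulated Nos2-/-, 4.90, 5.05 and 5.31 in stimulated WT, 7.36, 7.29 and 6.22 in untreated Nos2-/- and 7.27, 7.21 and 6.69 in untreated WT BMDMs, and changed by -2.13 ± 0.25 in Nos2-/- and -1.97 ± 0.25 in WT. Anln (anillin), the scaffold of the furrow, had 5.09, 5.37 and 5.62 in stimulated Nos2-/-, 5.50, 5.77 and 5.62 in stimulated WT, 7.68, 7.75 and 6.78 in untreated Nos2-/- and 7.71, 7.62 and 7.31 in untreated WT BMDMs. Kif20a, a central spindle kinesin, had 4.26, 4.54 and 4.35 in stimulated Nos2-/-, 4.70, 4.41 and 4.79 in stimulated WT, 6.76, 6.59 and 5.23 in untreated Nos2-/- and 6.81, 6.11 and 6.16 in untreated WT BMDMs. Neither gene had overlapping groups, and their changes were -2.04 ± 0.21 and -1.81 ± 0.31 in Nos2-/- and -1.91 ± 0.21 and -1.73 ± 0.31 in WT. Kif23 and Racgap1 together form centralspindlin, which brings Ect2 to the midzone. Racgap1 had 5.98, 6.01 and 5.64 in stimulated Nos2-/-, 6.26, 6.40 and 6.28 in stimulated WT, 7.91, 7.84 and 6.99 in untreated Nos2-/- and 7.68, 7.47 and 7.33 in untreated WT BMDMs, and fell by 1.70 ± 0.19 in Nos2-/- and 1.18 ± 0.19 in WT, the smallest fall of this role in WT. Kif23 and Prc1, which bundles midzone microtubules, changed by -1.45 ± 0.17 and -1.46 ± 0.24 in Nos2-/- and by -1.37 ± 0.17 and -1.33 ± 0.24 in WT BMDMs.

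**Figure D3:**
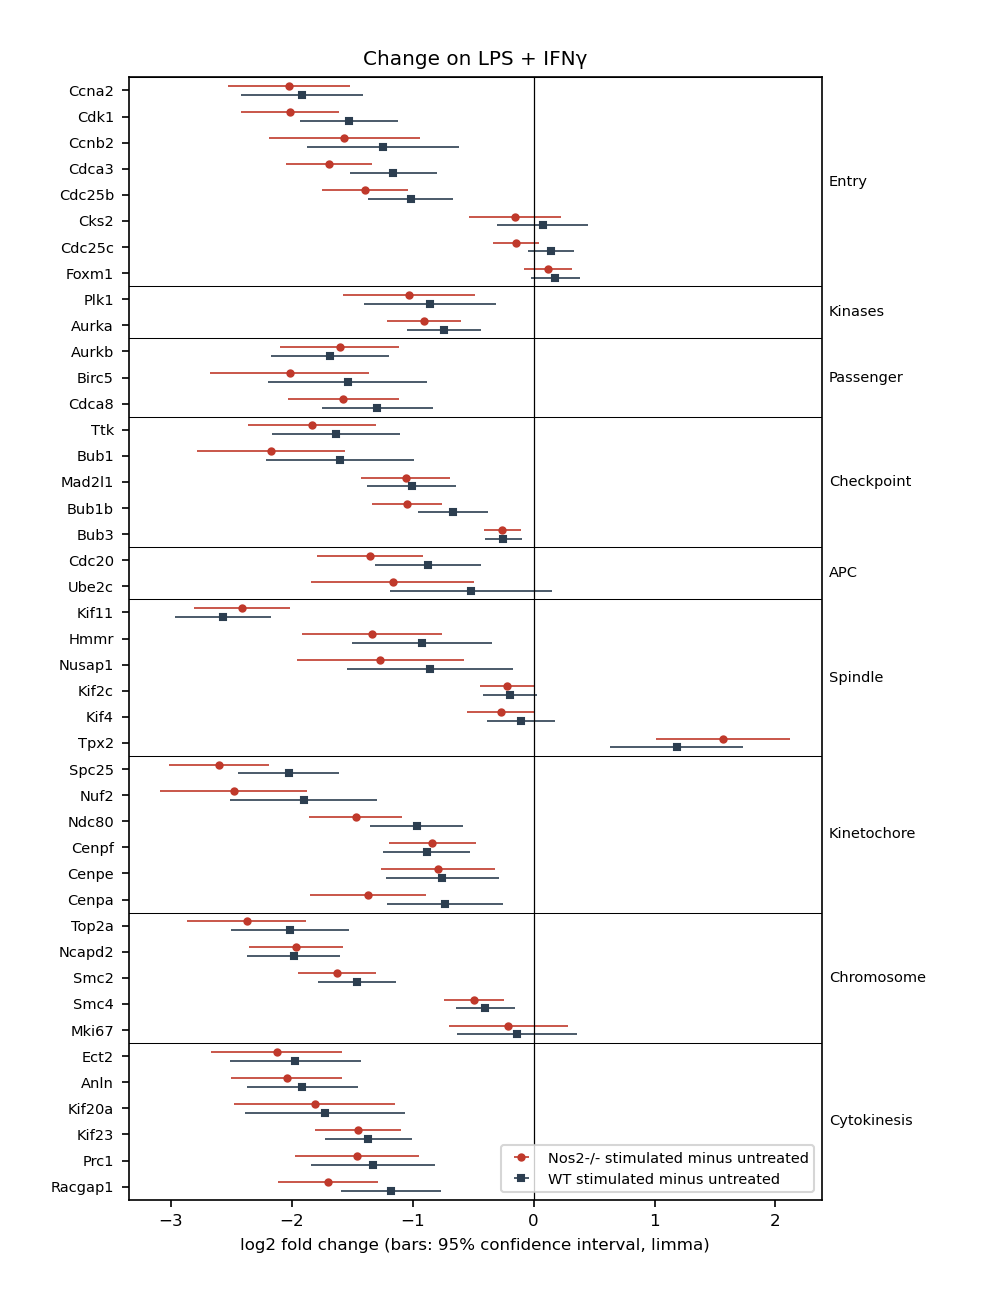
Log2 fold change on stimulation (stimulated minus untreated) of each of the 43 members in Nos2-/- BMDMs (red circles) and in WT BMDMs (dark squares), with bars for the 95% confidence interval from limma, grouped by role. All but a few points lie left of 0, from -2.60 for Spc25 in Nos2-/- to values near 0 for Cks2, Cdc25c and Foxm1, and Tpx2 stands alone on the right.

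A member with more than 1 probe set was read by its brightest, and 30 of the 43 had more than 1. Of these 30, all probe sets fell in 10 members in Nos2-/- BMDMs, at least 1 but not all fell and none rose in 16, and none fell in 3. In WT BMDMs these counts were 10, 15 and 3 members. Over the 99 probe sets of the members, 66 were lower and 2 higher in Nos2-/- BMDMs, and 64 were lower and 3 higher in WT BMDMs. Kif2c was not called by its brightest probe set, but 2 others fell, by 1.24 and 0.79 in Nos2-/- BMDMs, and their log2 fold changes in WT BMDMs were -1.39 and -0.84. Foxm1, not called by its brightest, had 1 of 4 probe sets that fell slightly, with -0.18 in each genotype (adjusted p = 0.0466 in Nos2-/- and 0.0499 in WT). Spc25 had a second probe set that rose, by 0.64 in Nos2-/- and 0.42 in WT, and Hmmr had 1 that rose in WT only (0.23, not called in Nos2-/- at 0.09) beside 4 that fell. The transcripts that these probe sets read were not compared. Cks2 and Cdc25c were not called by either of their 2 probe sets.

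Between stimulated BMDMs of the 2 genotypes, no member was called, where 1.03% of all genes were called higher and 1.91% lower in Nos2-/-. At an unadjusted p under 0.05, 8 of 43 members were lower in stimulated Nos2-/- BMDMs and none higher, beside 1517 lower and 1223 higher of the 18193 genes. The log2 fold change, Nos2-/- minus WT, was below 0 for 37 of 43 members, against 52.1% of all genes, and its median was -0.24, against -0.01. The members share their arrays, so 37 of 43 is no count of independent events. All stimulated Nos2-/- arrays lay below all stimulated WT arrays for 14 members, against 8.89% of all genes, and above them for none, against 8.21%. The mean signal over the members was 6.14, 6.28 and 6.12 on the stimulated Nos2-/- arrays and 6.35, 6.41 and 6.52 on the stimulated WT arrays, which do not overlap. Cenpa differed most, by -0.72 ± 0.22 (95% CI -1.20 to -0.24, adjusted p = 0.1202). Bub1 differed by -0.58 ± 0.29 (95% CI -1.19 to 0.04), Spc25 by -0.54 ± 0.19 (-0.96 to -0.13), Ube2c by -0.54 ± 0.31 (-1.21 to 0.13) and Birc5 by -0.53 ± 0.31 (-1.19 to 0.13). Their signals on each array are given above, and for Cenpa, Spc25, Ube2c and Birc5 the 3 stimulated Nos2-/- arrays were all below the 3 stimulated WT arrays. The calls of this comparison moved with the estimate of the spread. Without untreated Nos2-/- replicate 3, which is no part of the comparison but enters the shared estimate of the spread, Cenpa (adjusted p = 0.0312), Spc25 (0.0122) and Ndc80 (0.0476) were called lower, and with only the 6 stimulated arrays in the fit Cenpa (0.0297) and Spc25 (0.0497) were.

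Between untreated BMDMs of the 2 genotypes, no member was called, where 0.0055% of all genes were called higher and 0.0055% lower, and none reached an unadjusted p of 0.05. The changes, Nos2-/- minus WT, lay on both sides of 0 (21 of 43 below it, against 49.6% of all genes) with a median of 0.01. The largest in size were -0.26 ± 0.18 for Kif11 (95% CI -0.65 to 0.14), -0.19 ± 0.23 for Aurkb (-0.68 to 0.30), -0.16 ± 0.18 for Ncapd2 (-0.55 to 0.22), -0.16 ± 0.31 for Kif20a (-0.83 to 0.50) and -0.14 ± 0.21 for Anln (-0.60 to 0.32). For no member did the untreated groups lie apart, against 6.24% of all genes with Nos2-/- above WT and 6.4% with it below. These directions rest on untreated Nos2-/- replicate 3. Without it only Kif11 was below 0 (-0.02), Aurkb had 0.13, Ncapd2 0.13, Kif20a 0.32 and Anln 0.17, and the median was 0.28, again with no member called. The median was -0.19 without untreated Nos2-/- replicate 1 and -0.09 without untreated WT replicate 3.

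The changes on stimulation themselves were set against each other in the same fit, as the change in Nos2-/- minus the change in WT. No member was called, where 0.302% of all genes were called above 0 and 0.676% below, and 2 had an unadjusted p under 0.05 (Cdc25c and Cdca3, both below 0), a share like that of all genes, of which 957 of 18193 were below and 868 above 0 at that threshold. The difference was below 0, that is a larger fall or smaller rise in Nos2-/-, for 38 of 43 members (53.2% of all genes), with a median of -0.17 against -0.01. It was -0.65 ± 0.44 for Ube2c, -0.64 ± 0.31 for Cenpa (95% CI -1.32 to 0.04), -0.58 ± 0.27 for Spc25 (-1.16 to 0.01), -0.58 ± 0.40 for Nuf2 (-1.44 to 0.28) and -0.57 ± 0.40 for Bub1 (-1.44 to 0.30). Kif11, Aurkb, Ncapd2 and Cenpf were among the 5 members with a difference above 0, of at most 0.15, and Tpx2 had 0.39. The first 4 were below 0 without untreated Nos2-/- replicate 3 (Kif11 -0.08, Aurkb -0.25, Ncapd2 -0.27 and Cenpf -0.19), and Tpx2, at 0.05, was the only member above it. This contrast uses the arrays of the 2 comparisons of genotypes, so it is not a further sign of the same direction. Without untreated Nos2-/- replicate 3 the median was -0.51, and Spc25 (-0.88, adjusted p = 0.0205), Ndc80 (-0.78, 0.0404) and Racgap1 (-0.82, 0.0405) were called. The median was -0.03 without untreated Nos2-/- replicate 1 and -0.12 without untreated WT replicate 3.

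**Figure D4:**
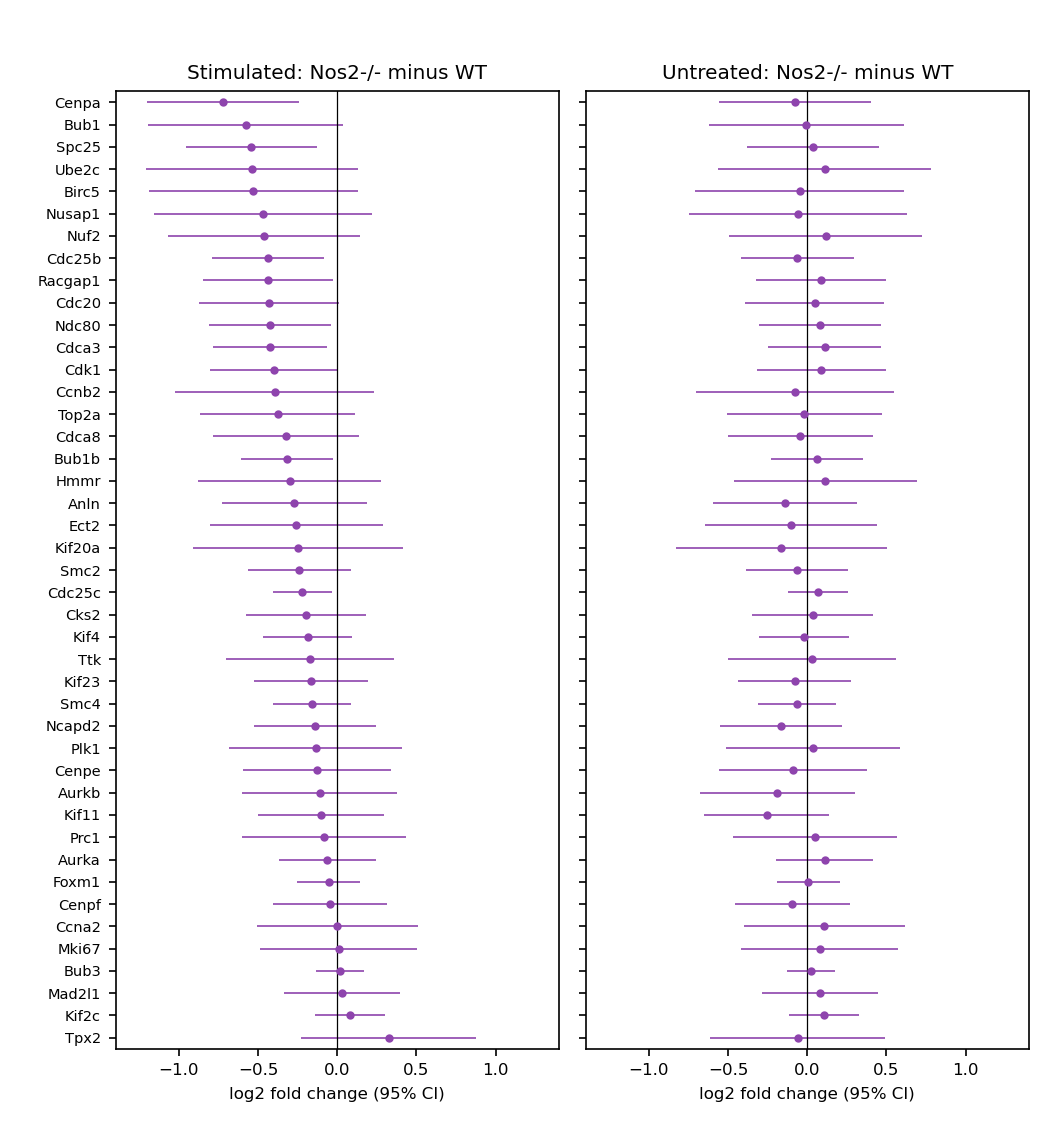
Log2 fold change between genotypes (Nos2-/- minus WT) of each of the 43 members in stimulated BMDMs (left) and in untreated BMDMs (right), with bars for the 95% confidence interval from limma, in the order of the left panel. On the left most points lie below 0, with Cenpa lowest at -0.72, and on the right they lie on both sides of 0. No member was called in either panel.

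Other genes of division fell with the members. Of 69 other mitotic genes, 46 fell and 5 rose in Nos2-/- BMDMs (median -0.71), beside 28.2% and 26.3% of all genes. In WT BMDMs 45 fell and 7 rose (median -0.67), beside 28.4% and 29.6% of all genes. Ncapg2, a condensin II subunit, had 6.51, 6.59 and 6.63 in stimulated Nos2-/-, 6.68, 7.33 and 6.93 in stimulated WT, 9.99, 10.07 and 10.03 in untreated Nos2-/- and 10.32, 10.27 and 10.33 in untreated WT BMDMs, the largest fall of this list in both genotypes (-3.45 ± 0.12 in Nos2-/- and -3.33 ± 0.12 in WT). It was nearly level across the arrays of each untreated group, untreated Nos2-/- replicate 3 included. Cenpi and Cenpk, of the inner kinetochore, and Cdca5 (sororin), which protects cohesion of sister chromatids, had the next largest falls in WT, with -1.96 ± 0.23, -2.75 ± 0.17 and -2.44 ± 0.22 in Nos2-/- and -2.38 ± 0.23, -2.37 ± 0.17 and -2.36 ± 0.22 in WT BMDMs. Some genes of mitosis rose with Tpx2. Pttg1 (securin), the inhibitor of separase, had 12.78, 12.61 and 12.84 in stimulated Nos2-/-, 12.68, 12.64 and 12.71 in stimulated WT, 11.14, 11.17 and 11.32 in untreated Nos2-/- and 11.25, 11.12 and 11.37 in untreated WT BMDMs, a rise of 1.53 ± 0.08 in Nos2-/- and 1.43 ± 0.08 in WT. Incenp, the scaffold of the passenger complex whose other 3 subunits fell, rose by 0.82 ± 0.12 in Nos2-/- and 0.96 ± 0.12 in WT, the kinetochore gene Zwint by 0.56 ± 0.08 in Nos2-/- and 0.94 ± 0.08 in WT and Cenpl by 0.93 ± 0.10 in Nos2-/- and 0.66 ± 0.10 in WT. Between stimulated genotypes, 1 of the 69 was called lower in Nos2-/- and 1 higher, beside 1.91% lower and 1.03% higher of all genes. The lower was Zwint (-0.39 ± 0.08, adjusted p = 0.0186) and the higher Haspin, a histone H3 kinase of mitosis (0.49 ± 0.11, adjusted p = 0.0228).

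The genes of the steps before mitosis also fell, and those of DNA replication had lower medians than the members. Of 29 DNA replication genes, 28 fell and none rose in each genotype, with a median of -2.38 in Nos2-/- and -2.23 in WT BMDMs. Of all genes 28.2% fell and 26.3% rose in Nos2-/- BMDMs, and 28.4% fell and 29.6% rose in WT BMDMs. Mcm6, a subunit of the replicative helicase, averaged 7.69 ± 0.11 in stimulated Nos2-/-, 7.67 ± 0.17 in stimulated WT, 11.93 ± 0.11 in untreated Nos2-/- and 11.93 ± 0.09 in untreated WT BMDMs (SD, n = 3 each), a change of -4.25 ± 0.09 in Nos2-/- and -4.26 ± 0.09 in WT. Dut, Rrm2 and Pola1, for nucleotide supply and the start of DNA strands, changed by -4.21 ± 0.19, -3.92 ± 0.26 and -3.67 ± 0.14 in Nos2-/- and by -4.26 ± 0.19, -4.02 ± 0.26 and -3.92 ± 0.14 in WT. Among 16 drivers of the G1/S step, 12 fell and 2 rose in each genotype (median -0.96 in Nos2-/- and -0.86 in WT). Ccne2 (cyclin E2) had 4.36, 4.46 and 4.30 in stimulated Nos2-/-, 4.51, 4.91 and 5.07 in stimulated WT, 9.29, 9.12 and 7.95 in untreated Nos2-/- and 8.86, 8.84 and 8.47 in untreated WT BMDMs, with every stimulated array below every untreated one. Myc, a transcription factor that drives growth and the G1/S step, had 5.04, 5.04 and 5.18 in stimulated Nos2-/-, 4.70, 4.73 and 5.08 in stimulated WT, 8.44, 8.46 and 8.54 in untreated Nos2-/- and 8.18, 8.54 and 8.33 in untreated WT BMDMs. Their changes were -4.41 ± 0.26 and -3.39 ± 0.11 in Nos2-/- and -3.90 ± 0.26 and -3.51 ± 0.11 in WT BMDMs. Ccnd1 (cyclin D1), which M-CSF induces, had 9.43, 9.36 and 9.94 in stimulated Nos2-/-, 9.43, 9.46 and 9.56 in stimulated WT, 11.82, 11.99 and 11.78 in untreated Nos2-/- and 11.96, 11.94 and 11.87 in untreated WT BMDMs. It changed by -2.29 ± 0.12 in Nos2-/- and -2.44 ± 0.12 in WT, and its kinase Cdk6 by -2.57 ± 0.13 in Nos2-/- and -2.48 ± 0.13 in WT. The other 2 D cyclins went up, Ccnd2 by 2.66 ± 0.10 in Nos2-/- and 2.42 ± 0.10 in WT and Ccnd3 by 1.61 ± 0.07 in Nos2-/- and 1.43 ± 0.07 in WT. Mybl2 (B-Myb), a partner of MuvB on the CHR, fell by 0.44 ± 0.10 in Nos2-/- and 0.64 ± 0.10 in WT.

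Brakes on Cdk1 and the cell cycle divided, with 15 of 31 higher and 12 lower in Nos2-/- BMDMs and 15 higher and 11 lower in WT BMDMs. Over all genes 26.3% were called higher and 28.2% lower in Nos2-/-, and 29.6% higher and 28.4% lower in WT BMDMs. Gadd45b, a stress protein that binds Cdk1, had 11.91, 11.78 and 12.07 in stimulated Nos2-/-, 11.90, 11.89 and 11.82 in stimulated WT, 7.93, 7.84 and 8.26 in untreated Nos2-/- and 8.10, 7.92 and 7.92 in untreated WT BMDMs, a rise of 3.91 ± 0.10 in Nos2-/- and 3.89 ± 0.10 in WT. Gadd45a rose by 2.10 ± 0.09 in Nos2-/- and 1.85 ± 0.09 in WT, Gadd45g by 0.61 ± 0.15 in Nos2-/- and 1.25 ± 0.15 in WT, and the Cdk4 and Cdk6 inhibitor Cdkn2d by 2.05 ± 0.13 in Nos2-/- and 1.88 ± 0.13 in WT. Cdkn1a (p21), the Cdk inhibitor that p53 induces, had 11.86, 11.68 and 11.97 in stimulated Nos2-/-, 12.35, 12.21 and 12.24 in stimulated WT, 10.86, 10.76 and 11.06 in untreated Nos2-/- and 11.17, 11.13 and 11.25 in untreated WT BMDMs. It rose by 0.94 ± 0.09 in Nos2-/- and 1.08 ± 0.09 in WT and was lower in Nos2-/- than in WT BMDMs after stimulation (-0.43 ± 0.09, adjusted p = 0.0177), while the difference between the 2 rises was not called (-0.14 ± 0.13, adjusted p = 0.7667). The falls included the E2F repressors E2f7 (-1.87 ± 0.19 in Nos2-/-, -2.46 ± 0.19 in WT) and E2f8 (-1.61 ± 0.14 in Nos2-/- and -1.89 ± 0.14 in WT), the MuvB subunit Lin9 (-1.22 ± 0.09 in Nos2-/- and -1.39 ± 0.09 in WT) and the inhibitor Cdkn2c (-2.04 ± 0.20 in Nos2-/- and -1.70 ± 0.20 in WT). Csf1r, the M-CSF receptor, fell by 0.38 ± 0.06 in Nos2-/- and 0.36 ± 0.06 in WT BMDMs, and Ets2, an effector of that receptor, rose by 2.50 ± 0.07 in Nos2-/- and 2.29 ± 0.07 in WT. Of the 6 genes listed for M-CSF signaling and macrophage proliferation, 3 rose and 2 fell in each genotype. Csf1 (M-CSF itself) had 0.80 ± 0.12 in Nos2-/- and 0.79 ± 0.12 in WT. Csf2rb and Csf2ra, chains of the GM-CSF receptor and not of the M-CSF receptor, were also on that list. They had 1.05 ± 0.06 and -0.48 ± 0.06 in Nos2-/- and 1.02 ± 0.06 and -0.47 ± 0.06 in WT BMDMs.

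2 genes of these lists were called in the difference between the changes, both of the 31 brakes and both below 0. Over all genes 0.302% were called above 0 and 0.676% below. Cdkn2b (p15), an inhibitor of Cdk4 and Cdk6, had 5.83, 5.51 and 6.03 in stimulated Nos2-/-, 6.97, 6.73 and 6.74 in stimulated WT, 6.28, 6.53 and 6.31 in untreated Nos2-/- and 6.38, 6.33 and 6.45 in untreated WT BMDMs. Stimulated arrays lay below untreated ones in Nos2-/- (-0.58 ± 0.12, adjusted p = 7.3e-04) and above them in WT (0.43 ± 0.12, adjusted p = 0.0067), and the difference was -1.01 ± 0.17 (95% CI -1.37 to -0.65, adjusted p = 0.0089). E2f6, an E2F repressor that lacks an activation domain, had 7.23, 7.43 and 7.11 in stimulated Nos2-/-, 7.89, 7.82 and 7.81 in stimulated WT, 9.32, 9.23 and 9.10 in untreated Nos2-/- and 9.14, 9.25 and 9.08 in untreated WT BMDMs. It fell in both, by 1.96 ± 0.09 in Nos2-/- and 1.32 ± 0.09 in WT, and the difference was -0.64 ± 0.12 (95% CI -0.90 to -0.37, adjusted p = 0.0258). None of the 69 other mitotic genes, 16 G1/S drivers or 29 DNA replication genes was called in that difference, while at an unadjusted p under 0.05 there were 3 above and 3 below 0 among the mitotic genes, 1 below among the G1/S drivers and 2 below among the DNA replication genes, again near the shares over all genes.

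**Figure D5:**
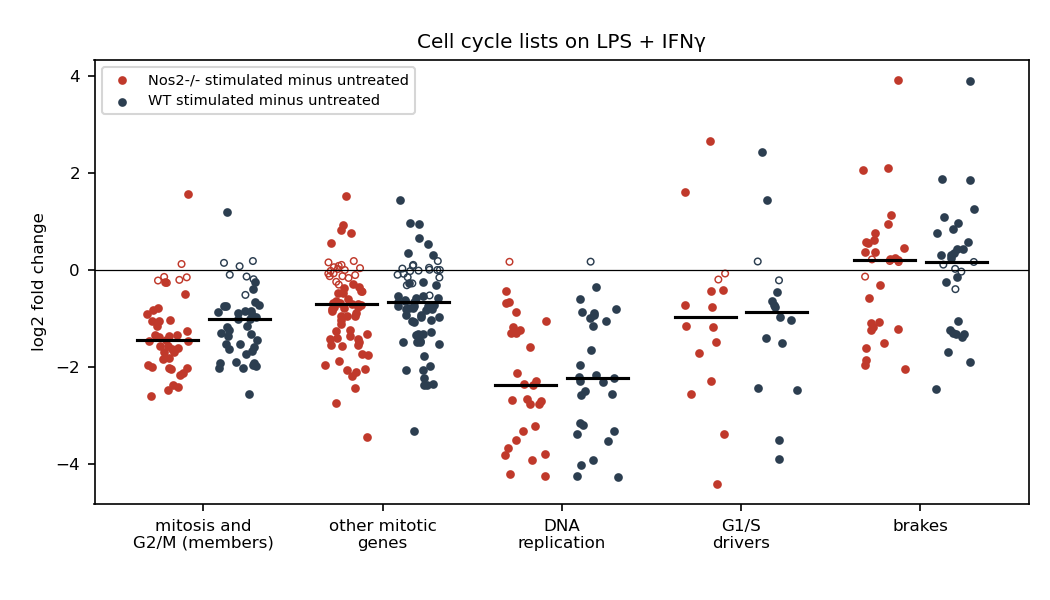
Log2 fold change on stimulation (stimulated minus untreated) of the genes of 5 lists, with the 43 members at the left, in Nos2-/- BMDMs (red) and WT BMDMs (dark); each point is a gene, filled where it was called and open where it was not, and the bar is the median of the list. The DNA replication list lies lowest, with medians of -2.38 in Nos2-/- and -2.23 in WT, the medians of the members and the G1/S drivers also lie below 0, and the brakes spread to both sides of 0.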

How the data were processed

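RNA of 12 BMDM cultures was labelled with a 3' IVT Express kit and hybridised to Affymetrix mouse expression arrays. The authors put the scanner files through RMA in Partek (version not given in the sources used here), and deposited log2 values for 45101 probe sets, all 12 arrays normalized together. RMA equalizes the overall distribution of signal between arrays, so a change common to most RNAs would not be seen. Of the probe sets, 64 were controls, 34945 named 1 gene, 932 several and 9160 none in the platform annotation. A gene was read by its single-gene probe set with the highest mean, which left 18193 genes, 9010 of them with more than 1 probe set. Signals of different probe sets were not compared with each other.

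A model with a mean for each of 4 groups was fitted to all genes and 12 arrays in limma 3.58.1 (R 4.3.3), with two-sided tests and Benjamini-Hochberg adjustment over all genes. Genes with an adjusted p under 0.05 were called, whatever their fold. The methods' analysis of variance at 1.5-fold and a false discovery rate of 0.5 was an alternative. The fit was tested on simulated data. Promoter windows came from RefSeq (GRCm38.p6). The members and the lists of other genes were chosen with earlier results of these data known, so no test over a list was made. By rule, values on every array are given for the member of each role with the largest and the smallest change in WT, for members whose call differs between genotypes, and for up to 5 members with the largest size in each comparison without calls. Of the other lists, up to 4 genes with the largest rises and 4 with the largest falls are named, with arrays for some of them, besides genes called in the difference and a few fixed by name. Nos2 and the further probe sets of members were read for context and chosen after their values were seen. No column of the table was left out.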

Additional observations from a re-analysis of the deposited data

Results flagged for a closer look

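The change on stimulation differed between the genotypes for 2 genes of the lists by the test of that difference (Nos2-/- minus WT, limma, adjusted over all genes). Over all genes 0.302% were called above 0 and 0.676% below. Cdkn2b had a difference of -1.01 (adjusted p = 0.0089), with 3 of 3 stimulated Nos2-/- arrays below all stimulated WT arrays. E2f6 had a difference of -0.64 (adjusted p = 0.0258), again with 3 of 3 stimulated Nos2-/- arrays below all stimulated WT arrays. The Nos2 probe set, read to describe the genotypes, had a difference of -1.84. Among the members, Cdc25c had 4.76, 4.65 and 4.53 in stimulated Nos2-/-, 4.88, 4.85 and 4.87 in stimulated WT, 4.78, 4.97 and 4.64 in untreated Nos2-/- and 4.81, 4.65 and 4.72 in untreated WT BMDMs. Each stimulated array lay below the untreated mean in Nos2-/- BMDMs and above it in WT BMDMs. The difference was -0.29, and its test did not call it (adjusted p = 0.4399).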

How the results depend on the processing

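Precision was limited by 3 arrays a group and, for these genes, by the spread of the untreated arrays. With the replicate number as a block the counts did not move: 36 members were lower and 1 higher in Nos2-/- BMDMs, 35 lower and 1 higher in WT BMDMs, and 0 called between genotypes or in the difference. Over all genes, same-numbered arrays correlated at -0.26 to 0.211 (2 of 18 over 0.1) and differently numbered ones at -0.166 to 0.274 (2 of 36 over 0.1). The 2 same-numbered pairs were untreated WT and untreated Nos2-/- replicates 1 (0.106) and replicates 3 (0.211). In both untreated groups the mean signal of the members also fell from replicate 1 to replicate 3. Whether the number links the untreated arrays in these genes was not tested. Leaving out each array in turn, 36 to 40 members were lower and 1 higher in Nos2-/- BMDMs, 31 to 36 lower and 1 to 2 higher in WT BMDMs, 0 to 3 lower between stimulated genotypes and 0 to 3 lower in the difference; the 31 came without untreated WT replicate 1. Counted by probe set, 66 were lower and 2 higher in Nos2-/- and 64 lower and 3 higher in WT. Quantile normalization once more gave 2 higher in each genotype, Foxm1 being the other (0.26 in Nos2-/-, adjusted p = 0.0366, and 0.34 in WT, adjusted p = 0.0084). Between stimulated genotypes, 2 members were lower with only the arrays compared, 1 with an intensity trend and 1 at the methods' threshold. Over the alternatives that read a gene by a single value, 35 of 37 calls in Nos2-/- and 30 of 36 in WT held wherever the gene was kept. None of these calls changed direction. The count by probe set is no part of this, and there Spc25, and in WT Hmmr, also had a probe set that rose. In WT, Nusap1 lost its call under 7 settings, Cenpa under 5, Plk1 under 3, Bub3 under 2, and Hmmr and Smc4 under 1 each.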
